A study of Mus musculus with 4 samples.

Results

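A set of 10 genes of fibroblast growth factor (FGF) signalling was followed in the skin of adult mice in which DNp63, the main epidermal form of the transcription factor p63, had been ablated. They are the receptors Fgfr1, Fgfr2 and Fgfr3, the ligand Fgf18, and the feedback regulators and targets Dusp6, Dusp4, Spry1, Spry2, Spry4 and Etv5. The genes were given by name rather than chosen by their values, and all 10 were present among the 32285 genes of each matrix. Epidermal cells were measured by droplet single-cell RNA sequencing in 4 libraries, 1 for each genotype at each of 2 time points, 1 day and 1 week. Control mice were DNp63fl/fl, and the experimental mice, called ablated here, were DNp63fl/fl;K14-CreT2. Mice of both genotypes received tamoxifen by gavage at 200 mg/kg on each of 5 days. The K14 promoter places the Cre in basal keratinocytes of epidermis and follicle, while fibroblasts and immune cells carry the floxed allele without being cells in which that promoter is known to be active. The labels give an age range of 2 to 17 months, equal numbers of both sexes, and digestion in 0.25% trypsin at 4 °C or at 37 °C. They do not say which age, digestion or number of mice belongs to which library. The 1 day libraries used a 3′ chemistry and the 1 week libraries a 5′ chemistry, so levels were compared within a time point only.

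FGFs are secreted proteins that bind receptor tyrosine kinases together with heparan sulfate. The activated receptor signals through RAS and the kinase ERK, and ERK activity switches on its own inhibitors. DUSP6 and DUSP4 are phosphatases that remove the activating phosphates of ERK and related kinases, Sprouty proteins (Spry1, Spry2 and Spry4) interfere with the pathway below the receptor, and ETV5 is an ETS transcription factor whose gene is a common readout of FGF activity. In skin, fibroblasts supply FGF7 and FGF10 to the epithelial form of FGFR2, and FGF18 is known as a factor of the resting hair follicle that is made in the bulge, the niche of the follicle stem cells.

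The genes lie apart in the mouse genome, on GRCm38 with GENCODE M21. Fgfr1 (ENSMUSG00000031565, chr8:25513654-25575718) and Dusp4 (ENSMUSG00000031530, chr8:34807297-34819894) share chromosome 8. Fgfr2 is ENSMUSG00000030849 (chr7:130162451-133123350), Fgfr3 ENSMUSG00000054252 (chr5:33721674-33737068) and Fgf18 ENSMUSG00000057967 (chr11:33117430-33147400). Dusp6 is ENSMUSG00000019960 (chr10:99263231-99267489) and Etv5 ENSMUSG00000013089 (chr16:22381309-22439719). Spry1 is ENSMUSG00000037211 (chr3:37639947-37644598), Spry2 ENSMUSG00000022114 (chr14:105891947-105896819) and Spry4 ENSMUSG00000024427 (chr18:38586247-38601415). Counts are per gene, so the epithelial and mesenchymal forms of the receptors are not separated.

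Trp63, the targeted gene, was detected in every library. Levels are given as UMIs (unique molecules) of a gene per 1000000 UMIs of the class, written CPM, and where 2 values stand together the control comes first and the ablated library second. Over all keratinocytes Trp63 stood at 403 and 125 CPM at 1 day (log2 of ablated over control -1.69), then 446 and 147 CPM at 1 week. In the bulge the difference was smaller, with 400 and 284 CPM at 1 day (log2 ratio -0.49), then 534 and 342 CPM at 1 week (-0.64). Within the bulge the log2 ratio differed between groups of cells, named by their leading genes. At 1 day it was -0.705 in the Cd34 and Postn-led, -0.365 in the Wfdc3 and Pinlyp-led and 0.096 in the Aspn and Pthlh-led group. At 1 week it was -0.897 in the Hbb-bs and Cd34-led group and -0.824 in the Wfdc3-led group. The Abi3bp and Slc7a2-led group had -0.186, and the Pthlh and Aspn-led group 0.009. In the upper hair follicle Trp63 was 255 and 124 CPM, then 237 and 118 CPM. Basal interfollicular cells had 613 and 348 CPM at 1 day (-0.82). The Gm94 and Orm1-led spinous cluster had 201 and 134 CPM at 1 day (-0.59). The Mt4 and Hpgds-led spinous cluster went the other way, at 373 and 443 CPM (0.25, 0.12 to 0.37). The counts are per gene, from 3′ or 5′ tags, and do not separate DNp63 from other forms of p63; whether the tags lie in the deleted part is not given in the sources used here.

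The libraries held 18413 to 33552 barcodes, and 5184 to 23741 cells each were kept, with a median of 3358 to 5693 UMIs per cell. The 2 libraries of a time point shared 299 barcodes at 1 day and 661 at 1 week. The 1 day libraries held Xist at 0.03 and 0.04 CPM, against 289 and 143 CPM at 1 week, while 4 Y-linked genes summed to 86.8 to 177 CPM in all 4 libraries, so the 1 day libraries went against the equal sexes of the labels. Classes of cells were named from marker genes, and neither the 10 genes nor the other pathway genes entered the clustering. All 10 bulge markers were detected in the bulge of every library, and their summed level was 5480 and 5592 CPM at 1 day, then 5545 and 6583 CPM at 1 week. The make-up of the keratinocytes differed widely between genotypes. The counts of basal interfollicular cells were 4527 and 433 at 1 day, then 2008 and 20 at 1 week, and a Slpi-led group of keratinocytes without a compartment held 6 and 5346 cells at 1 day. Clusters led by Krt8, with 6 and 4423 cells at 1 day, then 0 and 227 at 1 week, were kept apart from the keratinocytes. In the ablated library at 1 day they held 82.4 CPM of Fgfr2 and 58.4 CPM of Dusp6. The bulge, with 4121 and 2415 cells at 1 day, then 816 and 762 at 1 week, and the upper hair follicle, with 2061 and 1910, then 449 and 509 cells, were present in both genotypes and were compared most closely. With 1 library per group there was no replicate, and no test was made. Each level is a sum of UMIs, scaled to CPM, with an exact Poisson interval and each log2 ratio has a conditional exact binomial interval, both at 95% and both covering counting error only. A value written after a log2 ratio as a range is that interval. Orders of classes cover those with at least 50 cells in the library.

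Fgfr1, the receptor most often linked to mesenchymal cells, was highest in fibroblasts and next highest in the bulge in all 4 libraries, among classes with at least 50 cells, where neither interval overlapped that of the next class. The 16 melanocytes of the 1 week ablated library, below that limit, held 273 CPM (193 to 375). In the bulge, control cells held 167 CPM (159 to 174) of Fgfr1 at 1 day and ablated cells 199 CPM (189 to 210), which is a log2 ratio of 0.26 (0.15 to 0.36). The 1 week values were 226 and 316 CPM (0.48, 0.36 to 0.60). The ablated bulge was the higher one at both times, and the intervals of the 2 libraries did not overlap at either. The few bulge cells assigned to 3 hashtag pools at 1 day ranged from 142 to 199 CPM in the control and from 166 to 225 CPM in the ablated library, which overlap. The labels do not say what the hashtags mark. Within the bulge the difference was uneven. At 1 day the Cd34 and Postn-led group had 196 and 245 CPM (0.32), while the Wfdc3 and Pinlyp-led group had 61.3 and 61.7 CPM (0.01). At 1 week the Abi3bp and Slc7a2-led group had 214 and 407 CPM (0.92, 0.65 to 1.20), and the Pthlh and Aspn-led group had 356 and 318 CPM (-0.16). By its markers the Abi3bp and Slc7a2-led group was the least bulge-like. Its bulge marker score, a mean log2 level over the median cluster, was 1.66, against 2.46 to 3.33 in the others. Its cycling marker score was 1.70, against -1.30 to -1.09.

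Outside the bulge, Fgfr1 was low in the named layers of the epidermis. Spinous cells held 3.86 and 8.24 CPM at 1 day (1.09, 0.56 to 1.60) and basal interfollicular cells 6.73 and 11.4 CPM. The spinous ratio ranged from 0.45 as a mean of CPM per cell to 1.24 at Leiden resolution 2, and was 0.31 (-1.04 to 1.41) in the Mt4 and Hpgds-led cluster and 1.52 (0.85 to 2.17) in the Gm94 and Orm1-led one. Cycling keratinocytes had 29.0 and 50.9 CPM at 1 day (0.81, 0.54 to 1.08), then 46.3 and 57.6 CPM at 1 week (0.31, 0.03 to 0.61). In the Nppb and Krt8-led cycling cluster of 103 and 319 cells, which both 1 week libraries share, the direction was the opposite, with 94.04 and 58.1 CPM (-0.70, -0.98 to -0.40). The upper hair follicle had 22.8 and 26.2 CPM at 1 day, then 27.0 and 38.1 CPM at 1 week (0.50, 0.12 to 0.88). A Ccl2 and Fst-led group without a compartment, of 2684 and 1695 cells, held 97.1 and 117 CPM at 1 day (0.27, 0.14 to 0.39). Over all keratinocytes, Fgfr1 was 36.6 and 43.9 CPM at 1 day (0.26), then 39.9 and 74.2 CPM at 1 week (0.90, 0.81 to 0.98). These sums move with the make-up of the library. Averaged with the control's mix over the 8 classes that both 1 day libraries held, the log2 ratio was 0.01. That average takes in keratinocytes without a compartment at -1.53 (-1.69 to -0.65 over the alternatives), the class with the Slpi-led group. Each named keratinocyte class lay above 0 at 1 day, from 0.20 in the upper hair follicle to 1.16 in granular cells. The upper hair follicle and basal interfollicular intervals included 0. At 1 week 5 classes could be averaged, without basal interfollicular, spinous and granular cells, and gave 90.4 and 104 CPM (0.20), so both the classes taken and their mix differ from the plain sum. At 1 week the bulge made up 816 of 5962 keratinocytes in the control and 762 of 4014 in the ablated library.

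**Figure D1:**
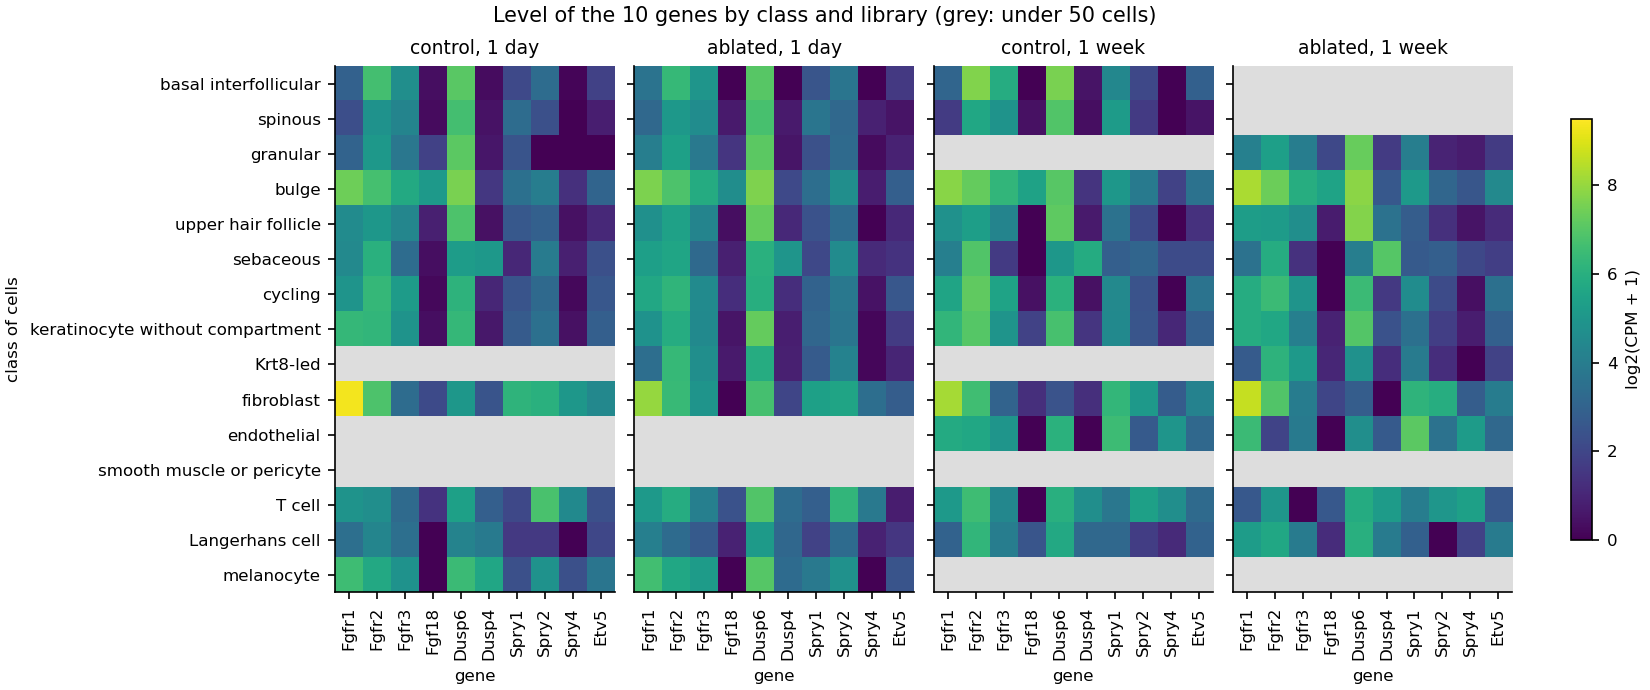
Level of the 10 genes (columns) in each class of cells (vertical axis), as log2(CPM + 1) by colour, with 1 panel per library and grey where a class held under 50 cells. Fgfr1 is brightest in fibroblasts and then the bulge, Fgf18 in the bulge, and Dusp4 in sebaceous cells and, in the 1 day control, melanocytes.

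Fgfr2, whose epithelial form receives FGF7 and FGF10, had close levels in several classes. In the 1 day control it was 115 CPM (93.9 to 140) in fibroblasts, 103 CPM in the bulge and 99.1 CPM in basal interfollicular cells, and each interval overlapped the next. At 1 week control basal interfollicular cells led with 205 CPM, ahead of the bulge at 152 CPM. In the ablated libraries the bulge had the highest level of the classes with at least 50 cells, at 115 CPM at 1 day and 164 CPM at 1 week. Fibroblasts came next in both, at 84.5 CPM (67.6 to 104) at 1 day and, with an interval that overlapped that of the bulge, 120 CPM (85.7 to 163) at 1 week, when control fibroblasts held 93.9 CPM. The 1 day interval holds the 81.1 CPM of basal interfollicular cells, so that place is not settled. The keratinocyte marker share described below gives 42.4 CPM of Fgfr2 in those 1 day fibroblasts. The 32 smooth muscle cells or pericytes of the 1 week ablated library held 209 CPM (142 to 297). In the bulge the 1 day log2 ratio was 0.16 (0.03 to 0.29), with 0.21 (0.06 to 0.36) in the Cd34 and Postn-led group, -0.16 in the Wfdc3 and Pinlyp-led group and -0.20 in the Aspn and Pthlh-led group. The 1 week ratio was 0.106 (-0.05 to 0.27). All 4 groups lay above that class value, at 0.31 (0.09 to 0.53) in the Hbb-bs and Cd34-led group, 0.21 in the Abi3bp and Slc7a2-led group, 0.49 in the Wfdc3-led group and 0.111 in the Pthlh and Aspn-led group, and 3 of the 4 intervals included 0. The Abi3bp and Slc7a2-led group, the richest in Fgfr2 at 257 and 297 CPM, made up 156 of 816 control and 98 of 762 ablated bulge cells.

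Several other keratinocyte classes had less Fgfr2 in the ablated library at 1 week. Sebaceous cells, which make the skin's lipids, had 119 and 57.4 CPM (-1.05, -1.46 to -0.65), after 65.1 and 47.5 CPM at 1 day (-0.45). The 1 day class joins an Akr1c18-led and a Soat1-led cluster in shares that differ between genotypes. Their Fgfr2 ratios were -0.41 (-0.82 to -0.02) and -0.28 (-0.89 to 0.325). The 1 week class is a single cluster, with a higher summed level of sebaceous markers in the ablated library. The part of that marker difference in the Fgfr2 value was not tested. Cycling keratinocytes had 144 and 87.2 CPM at 1 week (-0.72), although different clusters hold this class in the 2 libraries: 319 of the 323 ablated cells lay in a cluster led by Nppb and Krt8, against 103 of the 234 control cells. Within that cluster Fgfr2 was 127 and 86.7 CPM (-0.56). Keratinocytes without a compartment had 127 and 49.9 CPM (-1.35), and most clusters of this class were of 1 genotype. In the one with many cells of both, led by Igfl3 and Fst (638 and 369 cells), Fgfr2 was 143 and 101 CPM (-0.50, -0.69 to -0.31). The upper hair follicle had 31.3 and 42.0 CPM at 1 day (0.43), but the ratio was -0.02 at Leiden resolution 2 and the hashtag pools overlapped, at 25.1 to 36.3 CPM and 23.8 to 45.1 CPM. At 1 week it stood at 39.4 and 36.2 CPM. Over all keratinocytes Fgfr2 was 61.1 and 59.9 CPM at 1 day (-0.03), then 124 and 67.0 CPM at 1 week (-0.89, -0.96 to -0.82). Averaged over the 5 classes that both 1 week libraries held, with the control's mix, it was 120 and 77.2 CPM (-0.64).

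Fgfr3, a receptor of stratified epithelia and cartilage, had its highest level in the bulge in all 4 libraries. The bulge values were 53.4 and 56.2 CPM at 1 day (0.07), then 75.0 and 59.99 CPM at 1 week (-0.32, -0.57 to -0.08). The intervals of the genotypes overlapped at both times. The 1 week groups of the bulge did not share a direction, with 81.8 and 56.7 CPM in the Hbb-bs and Cd34-led group and 69.4 and 118 CPM in the Abi3bp and Slc7a2-led group. In cycling keratinocytes Fgfr3 was 35.9 and 22.3 CPM at 1 day (-0.69, -1.02 to -0.36), then 44.96 and 29.3 CPM at 1 week (-0.62). In the Nppb and Krt8-led cluster that both 1 week libraries share it went the other way, at 21.6 and 27.5 CPM (0.35, -0.21 to 0.95). Over all keratinocytes it was 25.5 and 24.2 CPM at 1 day, then 40.6 and 24.5 CPM at 1 week (-0.73, -0.85 to -0.62). At 1 week the control's basal interfollicular cells, the class with 20 cells in the ablated library, held 58.6 CPM.

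**Figure D2:**
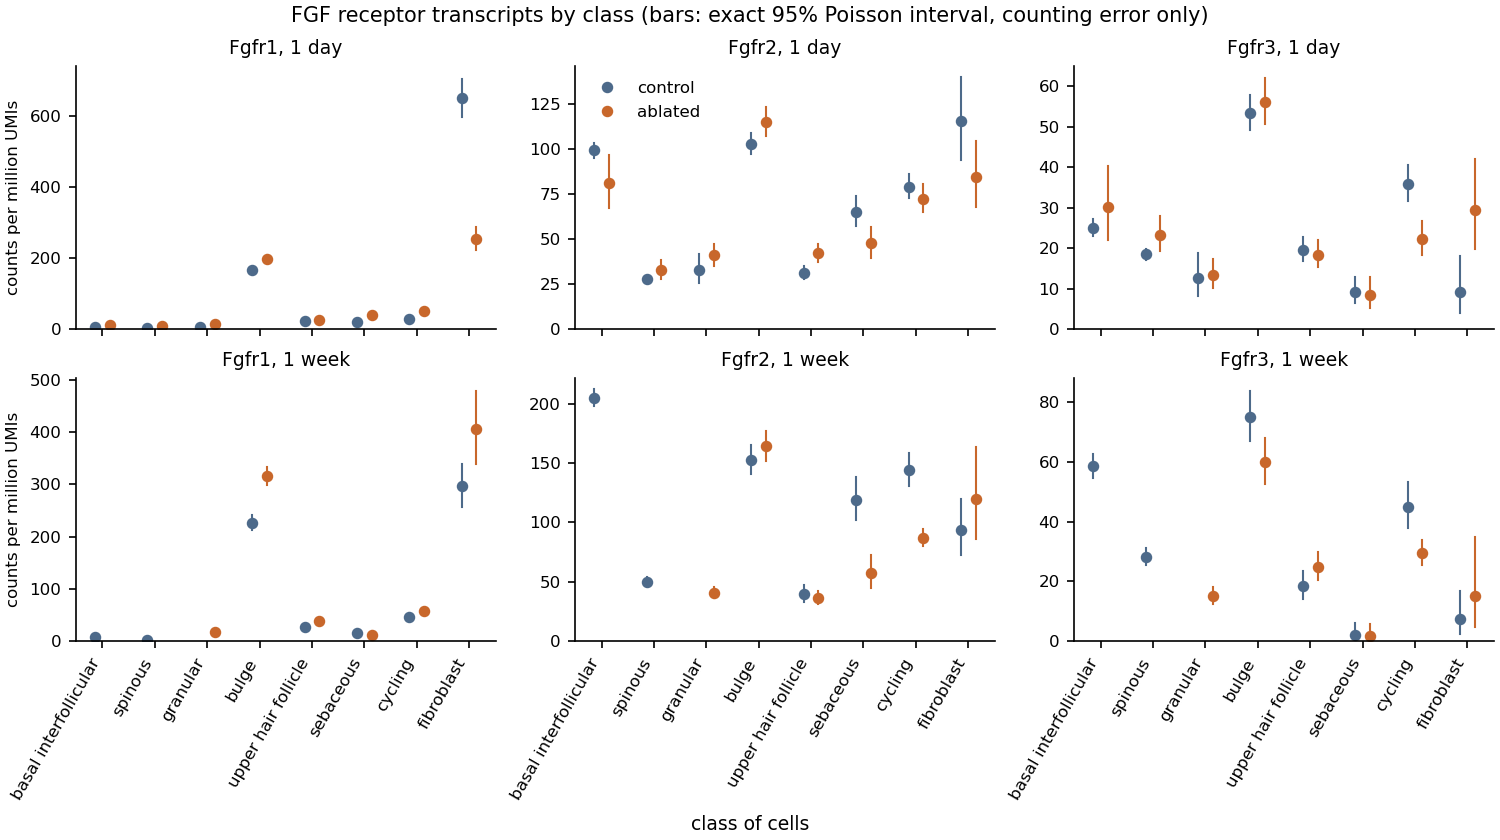
Fgfr1, Fgfr2 and Fgfr3 in CPM by keratinocyte class and in fibroblasts, for control and ablated libraries at each time point; points are single libraries, bars are exact Poisson 95% intervals, and classes under 50 cells are left out. Fgfr1 separates bulge and fibroblasts from the other classes, whereas Fgfr2 is spread over fibroblasts and basal, bulge, cycling and sebaceous cells.

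Fgf18, the only ligand among the 10, was a bulge transcript in these libraries. It stood at 33.8 and 24.2 CPM in the bulge at 1 day, from 392 and 169 UMIs, and at 43.4 and 44.1 CPM at 1 week. No other class with at least 50 cells in any library went above 5.14 CPM. The 1 day bulge was lower in the ablated library, with a log2 ratio of -0.48 (-0.75 to -0.22) and intervals that did not overlap, whereas at 1 week the log2 ratio was 0.02.

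Within the bulge, Fgf18 was concentrated in 1 group of cells at each time. At 1 day the Wfdc3 and Pinlyp-led group of 916 control and 540 ablated cells held 117 and 67.4 CPM (-0.80, -1.13 to -0.48), while the Cd34 and Postn-led group held 10.9 and 13.8 CPM. At 1 week the Wfdc3-led group of 139 and 91 cells held 215 and 277 CPM (0.37, -0.02 to 0.75), and the Hbb-bs and Cd34-led group 27.1 and 23.5 CPM. The same Wfdc3-led groups had the least Fgfr1 of the bulge at both times, with 65.8 and 80.2 CPM of it at 1 week. Fgf18 and Fgfr1 were thus highest in different bulge groups. The lower 1 day value rested on the Wfdc3-led group and did not appear in the Cd34-led one. Bulge cells of the 3 hashtag pools ranged from 20.1 to 31.9 CPM in the control and from 6.74 to 30.9 CPM in the ablated library, which overlap.

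**Figure D3:**
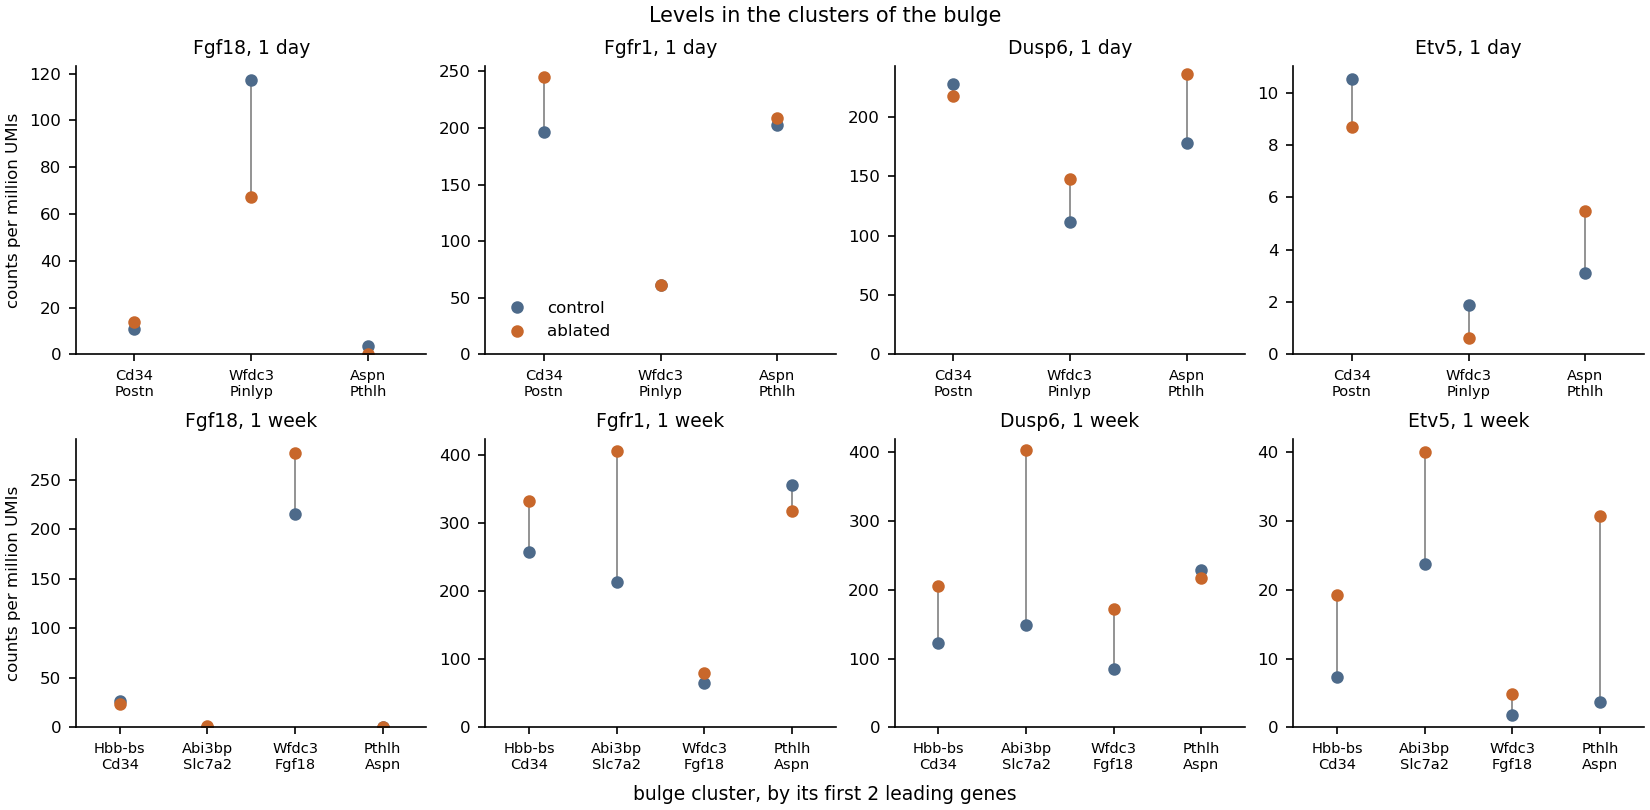
Level of Fgf18, Fgfr1, Dusp6 and Etv5 in the clusters of the bulge, in CPM, at 1 day (top) and 1 week (bottom); points are single libraries, a line joins control and ablated, and each cluster is named by its first 2 leading genes. Fgf18 sits in the Wfdc3-led cluster at both times, Dusp6 is higher in 3 of 4 ablated clusters at 1 week, and Etv5 in 4 of 4, of which 2 held 1 control UMI.

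Dusp6, the ERK phosphatase that FGF signalling induces, was counted in every class of keratinocytes. In the bulge it stood at 193 and 204 CPM at 1 day, with overlapping intervals and a log2 ratio of 0.08 (-0.02 to 0.18). At 1 week the values were 131 CPM (121 to 143) and 229 CPM (214 to 244), from 545 and 938 UMIs, a log2 ratio of 0.80 (0.65 to 0.95). The ablated bulge was thus the higher one at 1 week, by more than the counting error. In the upper hair follicle Dusp6 was higher in the ablated library at both times, with 114 and 153 CPM at 1 day (0.42, 0.29 to 0.54), then 142 and 213 CPM at 1 week (0.59, 0.43 to 0.75). In 3 of the 4 bulge groups at 1 week the difference was present, at 0.75 in the Hbb-bs and Cd34-led group, 1.43 in the Abi3bp and Slc7a2-led group and 1.02 in the Wfdc3-led group. The largest value is that of the group least bulge-like by its markers. The Pthlh and Aspn-led group had 229 and 218 CPM. At 1 day the groups differed among themselves, with -0.07 (-0.18 to 0.05) in the Cd34 and Postn-led group, 0.41 (0.16 to 0.67) in the Wfdc3 and Pinlyp-led group and 0.41 (0.16 to 0.66) in the Aspn and Pthlh-led group.

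At 1 week the orders of classes by Dusp6 did not cover the same classes in the control and ablated libraries. In the 1 week control, basal interfollicular cells led with 190 CPM, and upper hair follicle and bulge followed at 142 and 131 CPM with overlapping intervals. In the 1 week ablated library the bulge and the upper hair follicle led with overlapping intervals, ahead of granular cells at 155 CPM. Basal interfollicular cells, with 20 in the ablated library, were too few to be ranked there. Granular cells, with 43 in the control, were too few to be ranked in the control. A change of order between genotypes can therefore not be read from the leading classes. At 1 day the bulge led in both libraries. Basal interfollicular cells had 134 and 131 CPM at 1 day, granular cells 136 and 137 CPM and spinous cells 101 and 107 CPM. These class values differed little, but the granular ratio ranged from -0.01 to 0.56 over the alternatives. Of the 973 ablated spinous cells, 374 lay in the Mt4 and Hpgds-led cluster, where Trp63 was not lower than in the control. Keratinocytes without a compartment had 78.3 and 152 CPM at 1 day, and the Slpi-led group, which the control nearly lacked, held 168 CPM in the ablated library. Within the Ccl2 and Fst-led group, present in both, the values were 78.2 and 103 CPM (0.40). Over all keratinocytes, which leave out the Krt8-led clusters, Dusp6 was 111 and 143 CPM at 1 day (0.37), then 135 and 144 CPM at 1 week (0.09). The 1 day ratio ranged from 0.20 to 0.38 over the alternatives, which include counting those clusters. Averaged over the shared classes with the control's mix, it was 0.21 at 1 day and 0.47 at 1 week. Over the 3 hashtag pools at 1 day, Dusp6 in the upper hair follicle ranged from 108 to 136 CPM in the control and from 141 to 164 CPM in the ablated library, with no overlap. In the bulge the pools ranged from 159 to 181 CPM and from 190 to 249 CPM, also with no overlap. These pools hold few of the cells, down to 72 UMIs of Dusp6, and all 3 control pools lay below the 193 CPM of the whole control bulge, so they do not stand for the class, whose ratio was 0.08.

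Etv5, the ETS factor and FGF target, was scarce, and its counts set wide intervals. In the bulge it was 7.33 and 6.43 CPM at 1 day (-0.19), then 10.9 and 21.5 CPM at 1 week, from 45 and 88 UMIs, a log2 ratio of 0.98 (0.45 to 1.53). The 1 week intervals, 7.92 to 14.5 CPM and 17.2 to 26.4 CPM, did not overlap. In the Hbb-bs and Cd34-led group Etv5 was 7.35 and 19.3 CPM (1.39), and in the Abi3bp and Slc7a2-led group 23.7 and 39.9 CPM (0.75, -0.14 to 1.63). The other two groups held 1 control UMI each. Bulge Etv5 was thus higher together with Dusp6 at 1 week, whereas at 1 day the ratios of the whole bulge were 0.08 for Dusp6 and -0.19 for Etv5. Over all keratinocytes Etv5 was 3.02 and 2.45 CPM at 1 day (-0.30, -0.57 to -0.03), then 4.93 and 7.23 CPM at 1 week (0.55, 0.30 to 0.81). With the control's mix of classes these ratios were -0.60 and 0.35. The 1 day sum did not hold for every group. The Ccl2 and Fst-led group, present in both libraries, had 6.65 and 9.34 CPM (0.49, 0.02 to 0.96). Keratinocytes without a compartment, the class with the Slpi-led group, had a 1 day ratio of -1.57.

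Because Dusp6 and Etv5 were higher together in the 1 week bulge while Spry2 was lower, the 250 bases before the start of these 3 genes are shown, from RefSeq on GRCm38.p6, on the strand of the gene. Capitals mark GGAAG, a longer form of GGAA, a core bound by ETS factors, on either strand (CTTCC on the other strand). Etv5 has 2 annotated starts. Dusp6 lies on chromosome 10 (chr10:99262981-99263230, plus strand), Etv5 on chromosome 16 (chr16:22439571-22439820 and chr16:22438369-22438618, minus strand) and Spry2 on chromosome 14 (chr14:105896820-105897069, minus strand).
Dusp6: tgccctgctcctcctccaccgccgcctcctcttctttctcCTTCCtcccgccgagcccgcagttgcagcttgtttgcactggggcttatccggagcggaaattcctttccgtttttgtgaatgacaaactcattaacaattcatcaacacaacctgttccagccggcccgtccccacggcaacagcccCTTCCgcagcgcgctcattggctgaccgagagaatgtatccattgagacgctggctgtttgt
Etv5, first start: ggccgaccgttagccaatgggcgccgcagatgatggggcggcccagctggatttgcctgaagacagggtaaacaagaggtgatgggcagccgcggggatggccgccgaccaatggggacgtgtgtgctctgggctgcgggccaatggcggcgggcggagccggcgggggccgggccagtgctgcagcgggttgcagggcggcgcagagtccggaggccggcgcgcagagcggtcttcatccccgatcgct
Etv5, second start: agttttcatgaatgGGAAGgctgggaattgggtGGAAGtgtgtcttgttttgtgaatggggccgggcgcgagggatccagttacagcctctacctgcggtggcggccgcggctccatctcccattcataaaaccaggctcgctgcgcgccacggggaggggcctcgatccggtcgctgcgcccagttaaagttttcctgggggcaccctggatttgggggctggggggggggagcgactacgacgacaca
Spry2: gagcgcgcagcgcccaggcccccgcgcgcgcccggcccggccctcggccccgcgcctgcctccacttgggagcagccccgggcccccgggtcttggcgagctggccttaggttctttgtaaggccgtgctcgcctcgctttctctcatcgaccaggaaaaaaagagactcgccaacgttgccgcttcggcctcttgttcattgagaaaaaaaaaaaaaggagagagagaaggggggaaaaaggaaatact

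The Dusp6 window held 2 GGAAG matches, 1 of them within the longer CGGAAG. The Etv5 windows held 0 and 2 matches and the Spry2 window 0. GGAA without a following G was not counted, and the Dusp6, the Spry2 and the second Etv5 window hold it. No window held TGANTCA, the letters of an AP-1 site. Over 32851 RefSeq promoter windows of the same length, 64.1% held GGAAG, 13.6% held CGGAAG and 6.75% held TGANTCA, so a GGAAG match is common. The matches describe these letters and no binding was measured. RefSeq windows were matched for 7 of the 10 genes, and none was matched for Fgfr1, Dusp4 and Spry4.

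**Figure D4:**
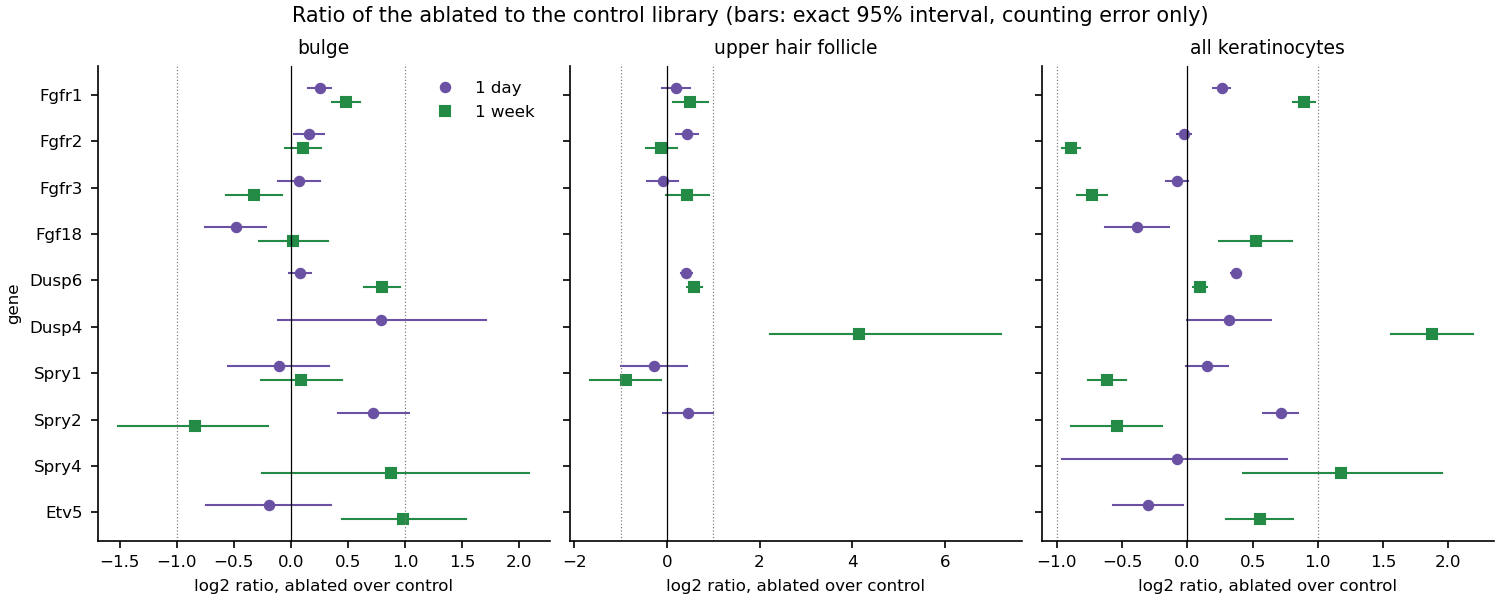
Log2 ratio of ablated to control (horizontal axis) for each gene with at least 30 UMIs, in the bulge, the upper hair follicle and all keratinocytes at 1 day and 1 week, with conditional exact 95% intervals; dotted lines mark 2-fold. Dusp6 lies above 0 in the upper hair follicle at both times and in the bulge at 1 week, and Spry2 in the bulge lies on opposite sides of 0 at the 2 times.

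Dusp4, a nuclear phosphatase of the same family, was a sebaceous transcript among keratinocytes. Sebaceous cells held 32.3 and 29.96 CPM at 1 day, then 56.2 and 125 CPM at 1 week (1.15, 0.76 to 1.56). The close 1 day values cover 2 clusters in unequal shares. The Soat1-led cluster, 135 of 602 control and 258 of 535 ablated sebaceous cells, held 65.4 and 43.1 CPM (-0.60, -1.16 to -0.05), and the Akr1c18-led one 19.7 and 19.04 CPM (-0.05). Over all keratinocytes Dusp4 was 1.64 and 2.05 CPM at 1 day (0.32), then 2.37 and 8.68 CPM at 1 week, from 117 and 311 UMIs, a log2 ratio of 1.87 (1.56 to 2.19). The 1 week sums take in a Fa2h and Elovl3-led cluster of 0 and 105 cells, placed without a compartment. Its marker score was highest for sebaceous cells, at 4.91. A Fa2h and Ifitm6-led cluster of 98 and 3 cells scored 1.75 for both sebaceous and spinous cells. With the control's mix, which takes in both clusters, the ratio was 1.40. In the upper hair follicle at 1 week Dusp4 rested on 2 control and 52 ablated UMIs, or 0.62 and 10.9 CPM, a log2 ratio of 4.14 with a counting interval of 2.22 to 7.22. Its size moved with the processing, to 1.44 at Leiden resolution 2, 2.08 with doublets kept and 3.07 with barcodes under 2000 UMIs kept. The summed level of the 11 sebaceous markers in the same upper hair follicle cells was 159 and 449 CPM at 1 week, with 7 and 9 of them detected. In the sebaceous class itself that sum was 10621 and 20060 CPM, so Dusp4 and the sebaceous markers were both higher in the ablated library. Their part in the Dusp4 values was not tested. Outside keratinocytes, control melanocytes held 47.8 CPM at 1 day from 144 cells, with an interval of 24.7 to 83.5 CPM that overlapped the sebaceous one. The 57 ablated melanocytes held 8.95 CPM (1.08 to 32.3), from 2 UMIs.

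The Sprouty genes, inhibitors of receptor tyrosine kinase signalling, were higher in fibroblasts, T cells or endothelial cells than in keratinocytes. Spry1 was 70.8 and 41.3 CPM in fibroblasts at 1 day and 76.6 and 72.0 CPM at 1 week, when endothelial cells held 91.0 and 138 CPM. Among keratinocyte classes, Spry1 in the bulge was 10.4 and 9.72 CPM at 1 day, then 31.8 and 33.9 CPM at 1 week (0.09). Within the 1 week bulge all 4 groups had ratios above that, with 65.8 and 105 CPM (0.67, 0.14 to 1.19) in the Abi3bp and Slc7a2-led group, which held the most Spry1 and a smaller share of the ablated bulge, and 0.19 (-0.35 to 0.74) in the Hbb-bs and Cd34-led group. The other two groups had at most 7 UMIs in a library. Control spinous cells at 1 week held 36.1 CPM. Over all keratinocytes Spry1 was 6.70 and 7.43 CPM at 1 day (0.15), then 24.7 and 16.1 CPM at 1 week (-0.62).

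Spry2 was the Sprouty gene with the clearest differences in the bulge, and they went in opposite directions at the 2 times. The bulge held 15.2 and 25.0 CPM at 1 day (0.72, 0.41 to 1.03), with intervals of 13.0 to 17.6 and 21.4 to 29.0 CPM that did not overlap. At 1 week it held 14.0 and 7.80 CPM (-0.84, -1.51 to -0.20), with intervals of 10.6 to 18.1 and 5.34 to 11.02 CPM that overlapped slightly. The 1 day groups of the bulge had 0.68 (0.32 to 1.04), 0.47 (-0.44 to 1.37) and 1.08 (0.12 to 2.06) in the Cd34, Wfdc3 and Aspn-led ones. At 1 week the Hbb-bs and Cd34-led group had -0.90 (-1.80 to -0.03), the Abi3bp-led group -0.42 (-1.69 to 0.72), and the other two 3 UMIs or fewer in each library. Over all keratinocytes Spry2 was 7.89 and 12.9 CPM at 1 day (0.71, 0.58 to 0.85), then 4.22 and 2.90 CPM at 1 week (-0.54, -0.89 to -0.19). Spinous cells at 1 day held 4.03 and 8.24 CPM (1.03), a ratio that was below 2-fold under 4 of 8 alternatives and lowest, at 0.80, with doublets kept. It was 0.31 (-0.85 to 1.28) in the Mt4 and Hpgds-led cluster of 3859 and 374 cells and 2.23 (1.47 to 2.999) in the Gm94 and Orm1-led one of 1382 and 599 cells. Of these clusters, only the Gm94 and Orm1-led one had less Trp63 in the ablated library. Sebaceous cells held 14.3 and 22.8 CPM (0.67), but the Akr1c18-led cluster had 0.27 (-0.66 to 1.16) and the Soat1-led cluster, richer in Spry2, 0.57 (-0.20 to 1.37). The Soat1-led cluster made up 135 of 602 control and 258 of 535 ablated sebaceous cells. The 3 hashtag pools at 1 day ranged from 6.38 to 7.61 CPM in control keratinocytes and from 11.01 to 11.5 CPM in ablated ones. All 3 pools lay below the value of all keratinocytes in each library, 7.89 and 12.9 CPM, so they do not stand for the class. In the bulge the pools overlapped, at 6.38 to 18.3 CPM and 14.4 to 35.9 CPM. Spry4 was close to the limit of counting in keratinocytes, at 0.294 and 0.278 CPM at 1 day, then 0.507 and 1.14 CPM at 1 week, from 25 and 41 UMIs (1.17, 0.42 to 1.95). Among classes with at least 50 cells, its highest levels were 32.0 CPM in control fibroblasts at 1 day and 41.2 CPM in ablated T cells at 1 week. Smooth muscle cells or pericytes at 1 week, 21 and 32 cells, held 155 CPM (84.6 to 260) and 47.2 CPM (19.0 to 97.3).

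Values outside keratinocytes stand beside a measure of keratinocyte RNA in those cells. At 1 day, keratinocyte markers in fibroblasts stood at 25.7% and 70.8% of their level in keratinocytes, and in T cells at 24.4% and 71.5%. At 1 week these shares were 10.9% and 4.93% in fibroblasts and 49.0% and 18.5% in T cells. The cells' own markers differed too. The 8 T cell markers summed to 9525 and 2328 CPM in T cells at 1 day, and the 7 fibroblast markers to 2916 and 2180 CPM in fibroblasts at 1 day, against 37126 and 24158 CPM at 1 week. The 1 day fibroblast class was led by Tnfaip6, Vim, Serpine2 and Crabp1, and the 1 week class by Dcn, Col1a1, Col1a2 and Col3a1.

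Dusp6 in fibroblasts at 1 day was 32.0 and 104 CPM, a log2 ratio of 1.70. The keratinocyte level of Dusp6 times the marker share gives 28.5 and 101 CPM, close to both measured values. At 1 week fibroblasts held 4.34 CPM (0.89 to 12.7) and 5.999 CPM (0.73 to 21.7), beside 14.7 and 7.09 CPM at the marker share, so the control value lay below that level. In T cells Dusp6 was 40.9 and 122 CPM at 1 day, beside 27.0 and 102 CPM at the marker share. Fibroblast Fgfr1 lay far above that level, with 650 and 253 CPM measured at 1 day beside 9.40 and 31.1 CPM at the marker share. Its log2 ratio was -1.36 (-1.58 to -1.14), from 569 and 258 UMIs. Per 1000 fibroblast-marker UMIs it was 223 and 116 (-0.94). At 1 week fibroblast Fgfr1 was 296 and 405 CPM (0.45, 0.13 to 0.77), so the direction differed between the times. Per 1000 fibroblast-marker UMIs the 1 week values were 7.98 and 16.8 (1.07, 0.75 to 1.39). Spry2 in T cells was 108 and 76.0 CPM at 1 day, beside 1.92 and 9.25 CPM at the marker share, and 41.4 and 30.9 CPM at 1 week. Per 1000 T cell-marker UMIs it was 11.4 and 32.6 at 1 day (1.52, 1.14 to 1.90), so the 1 day direction turns with the scale. On that scale it was 4.68 and 2.295 at 1 week (-1.03, -2.575 to 0.24). The part of keratinocyte RNA in the fibroblast and T cell ratios was not tested otherwise. Trp63 itself stood at 168 and 92.9 CPM in T cells and 91.3 and 96.3 CPM in fibroblasts at 1 day.

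**Figure D5:**
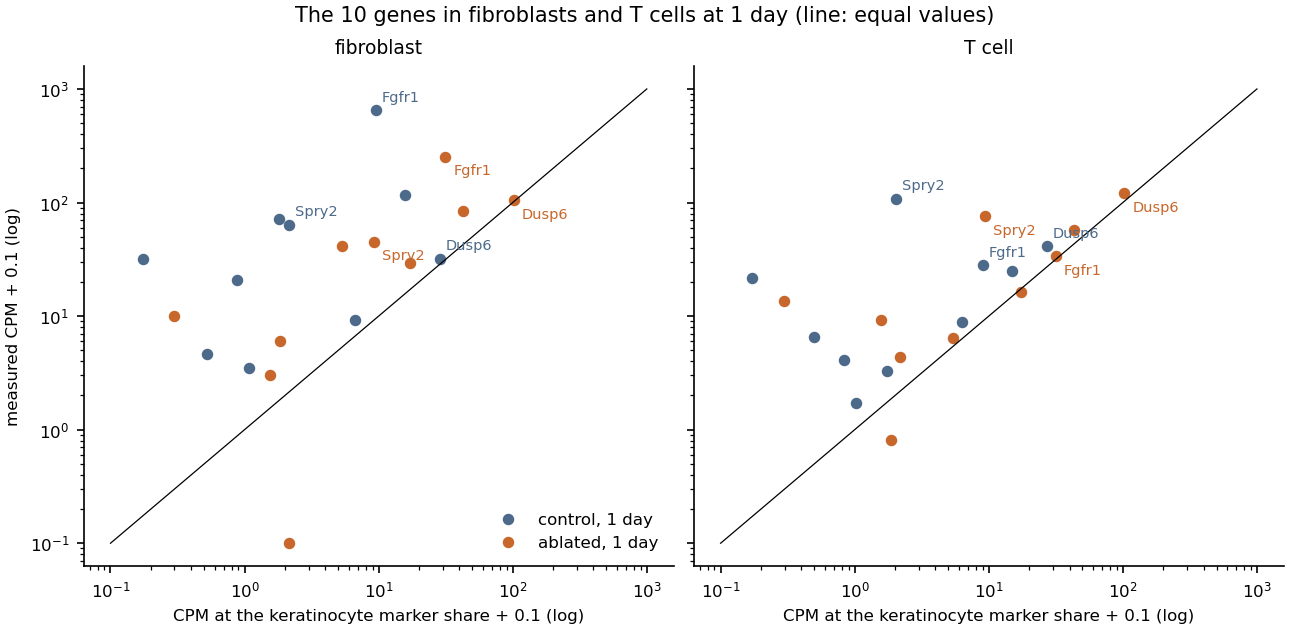
Measured level of the 10 genes in fibroblasts and T cells at 1 day against the level the keratinocyte marker share would give, both in CPM plus 0.1 on log axes; the line marks equal values. Dusp6 lies near the line in both libraries, and fibroblast Fgfr1 and T cell Spry2 lie well above it.

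A difference of at least 2-fold in either direction was counted for genes with at least 30 UMIs over both libraries. In all keratinocytes at 1 day, 0 of the 10 genes passed it, where 5.67% of 14136 genes were at least 2-fold higher in the ablated library and 2.87% at least 2-fold lower. At 1 week 2 of the 10, Dusp4 and Spry4, were at least 2-fold higher and 0 lower, where 10.7% of 13823 genes were higher and 5.09% lower. Spry4 was below 2-fold with the control's mix (0.398), without clustering (0.405) and with barcodes under 2000 UMIs kept (0.872). In the bulge 0 of the 9 genes with enough UMIs passed at either time. The 1 week count was not 0 under every alternative: Etv5 was 1.05 and Spry4 1.21 as a mean of CPM per cell, and Spry4 was 1.05 with barcodes under 2000 UMIs kept. Bulge Spry4 at 1 week was 0.88 (-0.25 to 2.09), from 11 and 20 UMIs. Of 11219 genes in the 1 day bulge 2.5% were higher and 0.66% lower, and of 10708 in the 1 week bulge 3.04% and 3.32%. In the upper hair follicle 0 of 6 passed at 1 day, where 2.73% of all genes were higher and 0.96% lower. At 1 week 1 of 6, Dusp4, was higher, beside 7.96% of all genes, and 0 were lower, beside 1.87%. In sebaceous cells at 1 week, Dusp4 was higher and Fgfr2 and Dusp6 lower among 4 genes, beside 6.64% and 5.2% of all genes. The Dusp6 value was -0.94 with doublets kept, -0.93 at Leiden resolution 2 and -0.99 without shared barcodes, and the Dusp4 value 0.99 with totals that leave out mitochondrial and ribosomal protein genes, so these 2 calls lie near the threshold. In fibroblasts at 1 day, Dusp6 and Fgfr3 were higher and Fgfr1 and Spry4 lower among 7 genes, beside 10.7% and 13.2% of all genes. The keratinocyte marker share gives 28.5 and 101 CPM for Dusp6, beside 32.0 and 104 CPM measured. For Fgfr3 it gives 6.56 and 17.1 CPM, beside 9.13 and 29.5 CPM measured, from 8 and 30 UMIs. Other classes were not counted this way. Among them at 1 day, Fgfr1 passed 2-fold in granular (1.16) and spinous cells (1.09) and Spry2 in spinous cells (1.03). In keratinocytes without a compartment Fgfr1 (-1.53) and Etv5 (-1.57) were lower. Each of these calls was lost under some alternatives. Another of the 5 granular genes with enough UMIs had none in the control, so it has no finite ratio. The median log2 ratio of the 10 genes in all keratinocytes was 0.06 at 1 day and 0.31 at 1 week, beside -0.01 and 0.10 over all genes tested.

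The other genes of the pathway were taken from a list of 112 ligands, coreceptors and heparan sulfate partners, adaptors and kinases, feedback inhibitors and ERK-responsive targets, of which 90 had enough UMIs in keratinocytes at each time. Of the 90, 7 had at least 2-fold more UMIs per total in the ablated library at 1 day and 0 had less, beside 5.67% and 2.87% of all genes, with a median log2 ratio of 0.06. The 1 week counts were 10 above and 3 below, beside 10.7% and 5.09% of all genes, with a median of 0.12 beside 0.10 for all genes. The shares of the list past 2-fold were thus near those of all genes, apart from the 0 lower at 1 day. Ligands had the highest median at 1 day, 0.93 over the 6 of 21 with enough UMIs. Of these, 3 were at least 2-fold higher, beside 5.67% of all genes. They were Fgf1 and the scarce Fgf2 and Fgf22. The limit is on UMIs over both libraries, so a scarce gene can pass it through the library where it is high. The ligand values are therefore not a result about ligands as a group. At 1 week their median was 0.39, with 2 higher and 1 lower. The adaptors and kinases had medians of -0.03 and -0.09 over 26 genes, and the feedback inhibitors 0.26 and 0.23 over 19.

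Among the 6 list genes with the highest ratios at 1 day, Fgf1, a ligand of all FGF receptors, was 6.33 and 23.5 CPM (1.89). Phlda1, an ERK-responsive gene, was 383 and 878 CPM (1.20), Egr2, an early response transcription factor, 54.0 and 122 CPM (1.17), and Dusp5, a nuclear ERK phosphatase, 131 and 276 CPM (1.07). The ligands Fgf2, at 0.098 and 0.278 CPM (1.51), and Fgf22, at 0.534 and 1.24 CPM (1.21), were scarce in both libraries. The 6 lowest were Hras (-0.60), Fgfbp3 (-0.64), Rps6ka1 (-0.65), Gpc1 (-0.66), Ccnd1 (-0.72) and Spred2, a RAS pathway inhibitor, at 28.8 and 17.4 CPM (-0.73). None of those 6 passed 2-fold.

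At 1 week Fgf1 was again among the highest, at 4.72 and 21.4 CPM (2.18). Etv4, an ETS factor of the same subfamily as Etv5, was 3.26 and 16.5 CPM (2.33), and Sulf2, which trims sulfate from heparan sulfate, 5.11 and 21.5 CPM (2.08). The others of the 6 were scarce: Dusp9 at 0.547 and 2.37 CPM (2.12), Dusp2 at 0.487 and 1.93 CPM (1.98) and Fgf22 at 0.507 and 1.65 CPM (1.70). The lowest were Gab2 (-0.65), Fgfbp1, an FGF carrier, at 690 and 382 CPM (-0.85), Flrt1 (-0.99), Spred2 at 43.3 and 21.4 CPM (-1.02), Fosl1, an AP-1 subunit, at 790 and 357 CPM (-1.15) and Fgf7 (-1.69), which rested on 31 and 7 UMIs. In the bulge at 1 week, 4 of 78 list genes were at least 2-fold higher and 1 lower, beside 3.04% and 3.32% of all genes, so these few genes are given as values and not as a result about the list. Dusp5 was 29.9 and 82.9 CPM (1.47), Errfi1, a feedback inhibitor of EGF receptors, 144 and 370 CPM (1.36), and Dusp10 20.5 and 42.4 CPM (1.05). Spsb1 was the other higher gene, and the lower one was the heparan sulfate proteoglycan Sdc3, at 14.2 and 5.61 CPM (-1.34). Beside the bulge values of Dusp6 and Etv5, the list's median in the 1 week bulge was 0.14, against 0.02 for all genes. The 5 bulge genes fall outside the rule for named genes and were chosen after their values were seen.

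The genes whose pattern over cell classes was most like each of the 10 were found by Pearson's r of log2(CPM + 1), over 25 class and library points at 1 day and 22 at 1 week. The points share libraries and depth, and r is given as a description. Fgfr1 was most like Cebpd (0.95), Ltbp1 (0.95) and Gas1 (0.95) at 1 day and Mitf (0.91), Tcf7l1 (0.90) and Ltbp1 (0.89) at 1 week, so Ltbp1, a binding protein of latent TGF-beta, was named at both times. Tcf7l1 is a transcription factor of bulge stem cells. Fgfr2 was most like Ankrd29, Cavin3 and Eva1a (0.89 to 0.88) at 1 day and Fat1 (0.94), Acsl3 (0.89) and Egfr (0.86) at 1 week. Fgfr3 was most like Plxnb1 (0.85), Dsg3 (0.84) and the basal and bulge keratin Krt15 (0.81) at 1 day, and Gpha2, Cd9 and Mbnl2 (0.86 to 0.85) at 1 week. Fgf18 was most like Dhrs2 (0.88), Adcy1 (0.84) and Myoc (0.83), then Chat (0.91), Adcy1 (0.89) and Il31ra (0.87), with Adcy1 at both times.

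The feedback genes did not share their nearest genes. Dusp6 was most like Iffo2, Hspb1 and Slc39a8 (0.85 to 0.83) at 1 day and Maml3, Bok and Rnf208 (0.86 to 0.85) at 1 week. Dusp4 was most like genes of lipid metabolism at 1 day, Lpin1 (0.89), Soat1 (0.88) and Cers4 (0.88), and Cd320 (0.86), Hacd3 (0.86) and Dgat1 (0.86) at 1 week. Spry1 was most like Scara3, Eln and Serping1 (0.87 to 0.85), then Kitl, Nsg1 and Git1 (0.90 to 0.87). Spry2 was most like Pitpnm1 (0.86), the T cell factor Tcf7 (0.85) and Csnk1g3 (0.84), then Bcl2l11, Ddit3 and Tmsb10 (0.91 to 0.88). Spry4 was most like Ace, Fgd5 and Armcx4 (0.94 to 0.93), then Mylk, Lgals3bp and Plscr1 (0.96 to 0.93), and Etv5 like Rai1, Safb and Pds5b (0.91 to 0.90), then Slc29a1, Dram1 and Megf6 (0.92 to 0.87). Within the 10, the pairs with the highest r at both times were Fgfr1 and Etv5 (0.81 and 0.72) and Spry2 and Spry4 (0.77 and 0.66). The lowest r were -0.49 for Dusp6 and Dusp4 at 1 day and -0.70 for Fgfr3 and Dusp4 at 1 week. Dusp6 and Etv5 had -0.25 and -0.27. These pairs were chosen after their values were seen.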

How the data were processed

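Gene counts per barcode, whole numbers of UMIs that were not normalized, were deposited by the authors as 1 matrix per library, and they were made with Cell Ranger 5.0.1 on mm10, with Seurat also named, per the submitters' processing notes. Barcodes were required to have 500 UMIs, 300 genes and no more than 15% of UMIs from mitochondrial genes. Doublets were scored with Scrublet at 0.8% per 1000 barcodes, which removed 24.4% and 25.5% of the barcodes at 1 day and 19.9% and 14.7% at 1 week (control, then ablated). At 1 week barcodes under 2000 UMIs were left out, a limit set after seeing the data. Cells of each time point were clustered over both libraries with scanpy 1.11.5 (2000 variable genes without the 10 genes or the pathway list, 30 components, 15 neighbours, Leiden resolution 1), and clusters were named from fixed markers. Unnamed cells made up 0.686% and 10.1% at 1 day and 22.6% and 11.9% at 1 week.

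UMIs were summed per library and class and divided by the class total, and ratios were given where both libraries held at least 50 cells. Intervals were computed with scipy 1.17.1 and run on counts simulated under the Poisson model that they assume. That simulation holds no variation between animals, libraries or clusterings, so it checks the computation only. Features without a gene, the hashtags, stayed out of the totals. All 10 genes are named, as are the 6 highest and 6 lowest list genes at each time point in keratinocytes and the 3 genes most like each of the 10 among genes reaching 20 CPM in a class. The genes and lists were chosen with earlier results of these data known. Alternatives were scaling by TMM (edgeR 4.0.16) or median of ratios (DESeq2 1.42.0), other filters, clusterings and totals, and class mix. The alternatives with the control's class mix, with shared barcodes left out and with barcodes under 2000 UMIs kept were chosen after seeing the data.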

Additional observations from a re-analysis of the deposited data

Results flagged for a closer look

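Several log2 ratios of ablated to control had intervals on opposite sides of 0 at 1 day and at 1 week. Each time point is 1 library per genotype and the chemistries differ, so the difference between the times was not tested.

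Spry2 was higher in the ablated bulge at 1 day (0.72) and lower at 1 week (-0.84), and over all keratinocytes it was 0.71 and -0.54. Fgf18 over all keratinocytes was -0.38 at 1 day and 0.52 at 1 week, and Etv5 was -0.30 and 0.55. With the control's mix over the 5 shared classes the 1 week Fgf18 ratio was -0.08, and in the bulge it was 0.02. For Etv5 the control's mix gave -0.60 at 1 day and 0.35 at 1 week. The Ccl2 and Fst-led group of both 1 day libraries had an Etv5 ratio of 0.49 (0.02 to 0.96), opposite to the 1 day sum. Fgfr1 in fibroblasts was -1.36 and 0.45, beside fibroblast classes led by different genes at the 2 times. Dusp6 in sebaceous cells was 0.82 and -1.02, in a class whose cluster shares at 1 day and marker level at 1 week differed between genotypes. Spry1 in keratinocytes without a compartment was 0.48 and -1.09, where the clusters that make up the class differ between genotypes. Fgfr2 in T cells was 1.21 and -1.57, and the 1 week value rested on 6 UMIs in the ablated library. The keratinocyte level of Fgfr2 times the marker share gives 14.9 CPM for control and 42.9 CPM for ablated T cells at 1 day, and 60.9 then 12.4 CPM at 1 week. The 1 day ratio was 0.09 with doublets kept, and the 1 week ratio -0.10 with barcodes under 2000 UMIs kept.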

How the results depend on the processing

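Of the 2 genes at least 2-fold higher in keratinocytes at 1 week, Dusp4 and Spry4, 1 was counted with a minimum of 100 UMIs, with all cells taken without clustering, with barcodes under 2000 UMIs kept and with the control's mix of classes. The count was 3 with TMM, median-of-ratios scaling and the mean of CPM per cell, through Fgfr2 at -1.002 and -1.02 and Fgfr1 at 1.02. Dusp4 kept a log2 ratio between 1.40 and 2.16 over its alternatives, and Spry4 ranged from 0.40 to 1.87. The median of the pathway list in keratinocytes at 1 week was 0.0029 with TMM and -0.0113 with median-of-ratios scaling, where the median of all genes was -0.017 and -0.031 beside 0.095 by UMI total. In the 1 week bulge 7 of 9 ratios kept their sign over the alternatives run, among them from 0.64 to 0.80 for Dusp6, 0.40 to 0.52 for Fgfr1, 0.78 to 1.05 for Etv5 and -0.92 to -0.63 for Spry2. The other two were Fgfr2 and Fgf18: Fgfr2 ranged from -0.14 to 0.38 with 1 change of sign and Fgf18 from -0.08 to 0.10 with 2. At 1 day bulge Fgf18 ranged from -0.59 to -0.34 and bulge Spry2 from 0.61 to 0.79. Over all keratinocytes at 1 week Dusp6 ranged from -0.03 to 0.47, with 2 changes of sign, Fgfr1 from 0.20 to 1.02 and Fgfr2 from -1.02 to -0.64. Keeping barcodes under 2000 UMIs changed the sign of 7 of 58 ratios at 1 week. Of these, 3 had been past 2-fold: Dusp6 in endothelial cells from -1.42 to 0.12, Fgf18 in keratinocytes without a compartment from -1.57 to 2.10, and Dusp4 in the same class from 1.27 to -0.85. Fgfr1 in sebaceous cells passed from -0.54 to 1.29. Fgf18 in keratinocytes without a compartment was 0.21 as a mean of CPM per cell. The cause was not tested. Keeping doublets changed the sign of 17 of 131 ratios, and leaving out shared barcodes changed 0 of 138. Counting the Krt8-led clusters as keratinocytes changed the sign of 1 of 20 ratios. No paired analysis was possible because each group had 1 library, and for the same reason no library could be left out. Low counts of Spry4, Etv5 and Fgf18 outside the bulge limit what could be detected.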
